A study of Mus musculus with 13 samples.

Results

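The Hox genes were described in mammary fibroblasts of the mouse, as the 39 genes whose symbols carry the name Hox with a cluster letter from a to d and a paralogue number, out of 32285 genes listed. Their messages were read in 13 libraries of droplet-based 3′ single-cell RNA sequencing. The genes were taken by symbol, not by level, but the barcodes were chosen by measured values: 500 to 7500 genes, at most 10% mitochondrial UMIs, at least 50 UMIs of Dcn, Lum and Col1a2 per 10000 and no UMI of Epcam, Pecam1, Rgs5, Sox10, Ptprc or Myog. A UMI is a molecular tag counted once for each captured message. The levels of those selecting genes are therefore no result. In all, 100523 of 120355 barcodes were kept.

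There were 5 libraries of C57BL/6 females, which covered puberty (4 weeks), the adult virgin gland (9 weeks), pregnancy (day 14.5), lactation (day 10) and involution (day 4), with 1 library for each stage. A further 4 C57BL/6 libraries, 2 per arm, came from 9-week females carrying pellets of placebo or of medroxyprogesterone acetate with estradiol (MPA + E). All 9 of these wild-type libraries were sorted as Lin–CD24– stromal cells. By the labels and the methods of the study, each of these libraries pools 2 females. The last 4 libraries came from 2 females of mixed C57BL/6 and FVB background, called raGFP-Wnt1, which carried a GFP reporter at 1 Pdgfra allele and a Wnt1 transgene under the MMTV promoter, which acts mainly in mammary epithelium. Lin–GFP+ cells were sorted from hyperplastic gland and from tumour of each female, at 45 weeks for mouse 1 and 17 weeks for mouse 2. Sort, strain and transgene therefore differ together between the wild-type and raGFP-Wnt1 libraries, and the labels give no gland position for any library, so position and condition cannot be told apart.

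Hox genes encode homeodomain transcription factors that give cells along the body axis their positional identity. They lie in the clusters Hoxa, Hoxb, Hoxc and Hoxd, in an order that follows their expression from head (low paralogue numbers) to tail (high numbers). Adult fibroblasts keep much of this code, which is held by Polycomb and Trithorax chromatin proteins, and Hox proteins bind DNA together with TALE cofactors of the Pbx, Meis and Pknox families.

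Fibroblast barcodes numbered 4236 to 11951 per library, with a median of 3990 to 20256 UMIs each. Any pair of libraries shared 3 to 34 fibroblast barcodes. The checking markers Pdgfra, Col3a1 and Col1a1 were high in every library, from 8266 to 38567 summed UMIs per 1000000 (CPM), and endothelial markers (Pecam1, Cdh5, Vwf) summed to at most 1.21 CPM with Pecam1 at 0 by selection. In summed barcodes, fewer cells expressing a gene and less message per cell cannot be told apart.

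Of the 39 genes, 14 reached a mean of 5 CPM over the 9 groups and 25 did not. On GENCODE M21 (GRCm38) the Hoxa genes lie on chromosome 6, Hoxb on 11, Hoxc on 15 and Hoxd on 2. The Hoxc cluster led, with 107.7 to 183.7 summed CPM in the 11 libraries without tumours, or 56.9 to 68.1% of all Hox UMIs. Hoxc8, which is active in the trunk and the embryonic mammary line, had the highest mean level. Pubertal fibroblasts held 27.8 CPM of it, adult ones 30.9 and those of pregnancy 24.1, while lactation reached 52.1 and involution 50. Its level was 52.5 and 37.3 CPM with placebo, 55.6 and 40.7 with MPA + E, 42.1 and 52.9 in hyperplasia, and 1.26 and 70.1 in tumours. The tumour values were the lowest and the highest of all libraries.

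Hoxc10, a posterior gene of the hind limb and lower trunk, ranged from 16.1 to 38.7 CPM outside tumours, with a median of 25.7 over 11 libraries. Hoxc6 ranged there from 18.6 to 37.2, Hoxc9 from 17.0 to 34.1 and Hoxc4 from 13.1 to 20.8 CPM. Hoxc5 lay between 3.98 and 7.19 CPM, and its annotated exons overlap those of Hoxc10 on the same strand, so reads could be split between them. The Hoxa genes of this level were Hoxa7 (8.49 to 17.0 CPM), Hoxa10 (3.76 to 10.3) and Hoxa5 (3.94 to 7.65). In the Hoxb cluster these were Hoxb2 (6.42 to 15.2), Hoxb3 (5.13 to 10.3), Hoxb4 (5.09 to 12.8) and Hoxb7 (3.42 to 8.37), and in Hoxd only Hoxd8 (6.74 to 11.9).

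Below 5 CPM, Hoxa9 came nearest, at a mean of 4.48 CPM, just under Hoxc5 at 5.19, the lowest of the genes above that level. Hoxa2, Hoxa3, Hoxa4, Hoxa6, Hoxb5, Hoxb6, Hoxb8, Hoxc11, Hoxd4 and Hoxd9 had means of 0.292 to 3.4 CPM, and Hoxb9 of 0.655. Hoxb13 and Hoxd12 had no UMI in any library, and 7 genes stayed under 0.1 CPM in every library, which were 5 of the tail end and the head-end genes Hoxb1 and Hoxd1. Paralogues 12 and 13 together were at most 0.152 CPM for number 13 and 0.0144 CPM for number 12 outside tumours. The fibroblasts thus carried the middle and lower-trunk numbers: paralogues 4 to 8 took 57.0 to 69.1% and paralogues 9 to 13 took 19.7 to 33.5% of Hox UMIs in the 11 libraries without tumours.

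**Figure D1:**
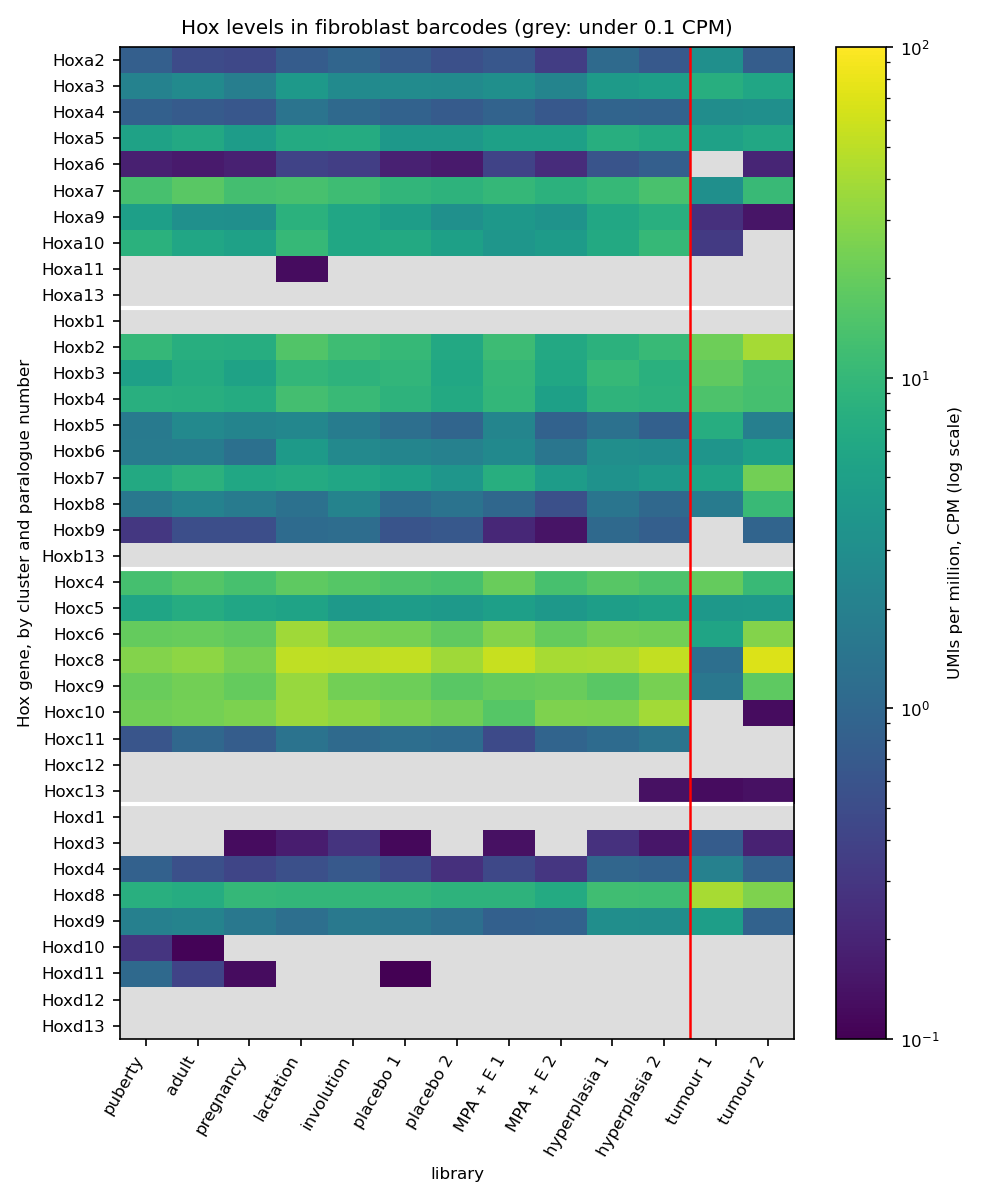
Level of the Hox genes shown (rows, by cluster) in the fibroblast barcodes of the 13 libraries (columns), in UMIs per 1000000 on a logarithmic colour scale; grey cells are under 0.1 CPM and the red line separates the 2 tumour libraries. Hoxc10, Hoxc11, Hoxa9 and Hoxa10 are dark or grey in both tumours, and Hoxc8 is dark in tumour 1 only.

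Hox levels were also read in other cells of the wild-type libraries, which were set apart by at least 5 UMIs of the marker list of their class (pooled over 9 libraries, intervals are exact Poisson and cover counting error only). In 1509 pericyte-like barcodes, Hoxb2 stood at 41.3 CPM (95% interval 37.1 to 46.0), above the 6.42 to 15.2 of wild-type fibroblast libraries. Hoxc8 at 36.0 (32.0 to 40.3), Hoxc10 at 21.3 (18.3 to 24.7) and the Hox sum of 288.9 CPM lay inside the fibroblast ranges of 24.1 to 55.6, 16.1 to 35.3 and 177.8 to 295.3. The 394 endothelial-like barcodes had the highest Hoxd8 level, 118.6 CPM (100.6 to 138.9), with Hoxd9 at 76.2 (62.0 to 92.8), and no UMI of Hoxc8 or Hoxc10, which allows up to 2.84 CPM. The Hox sum of endothelial-like barcodes was 532.1 CPM, above the 177.8 to 295.3 of wild-type fibroblast libraries. Epithelial-like barcodes were nearly without Hox messages, at 23.2 summed CPM. The class-marker limit was set after seeing the data.

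Over the 5 stages, lactation held the highest level of 10 of the 15 Hox genes with a mean of at least 5 CPM over the stages, and in each of these pregnancy or puberty held the lowest. With 1 library a stage no test was possible. Hoxa9 was 8.17 CPM in lactation and 3.09 in pregnancy, a ratio of 2.64 (95% exact interval 2.2 to 3.2). Hoxc8 gave a ratio of 2.16 (2.02 to 2.31) between the same stages, and Hoxb2, a hindbrain paralogue, one of 2.04 (1.8 to 2.31). In all, 5 of the 15 genes had a highest stage at least 2 times the lowest (Hoxa9, Hoxa10, Hoxb2, Hoxc6 and Hoxc8), where 17.9% of the 9566 genes of that level did. Hoxa10 and Hoxc6 were right at that limit, both with a ratio of 2.0, and the count was 3 with a mitochondrial limit of 5%. Epithelial markers summed to 33.4 CPM in the pregnancy fibroblasts and to at most 1.02 CPM in the other stages, and epithelial-like barcodes held few Hox messages; their part in the low pregnancy levels was not tested. The median ratio of the 15 was 1.74 and that of all genes 1.54. Puberty, adult and pregnancy libraries had 24.1 to 30.9 CPM of Hoxc8, below all 8 other libraries without tumours (37.3 to 55.6). Twist1, a mesenchymal factor, split the same way, at 71.1 to 98.3 against 205.8 to 303.8 CPM. The sequencing run of each library is not given in the labels, so stage and run cannot be told apart.

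MPA + E against placebo called no Hox gene with edgeR's quasi-likelihood test. Of 27 Hox genes tested, 0 passed an adjusted p of 0.05, where 4.33% of 15642 genes did. An unadjusted p under 0.05 was found for 4 of the 27 and for 2893 of the 15642 genes. These counts are no result about Hox genes. Hoxb9, a mammary growth paralogue, was 0.605 and 0.666 CPM in placebo and 0.218 and 0.143 in MPA + E, without overlap. Its log2 change was -1.81 ± 0.34 (SE), adjusted p = 0.0592, and it passed with DESeq2 (adjusted p = 0.0196). With edgeR it also passed with the replicate number as a block and with a fibroblast marker minimum of 100 per 10000, but in no other alternative. Hoxa10 was 6.62 and 5.05 CPM in placebo and 3.76 and 4.40 in MPA + E, with a log2 change of -0.50 ± 0.18 and an adjusted p of 0.24. Hoxc10 was 25.7 and 22.2 against 16.1 and 26.1, so the arms overlapped. The replicates of an arm differed more than the arms did for that gene. Without the second MPA + E library its log2 change was -0.60 (adjusted p = 0.0497) and without the first 0.18 (adjusted p = 0.513), where the lone MPA + E library is assumed to vary like placebo, so the sign rests on which library is kept.

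Hyperplastic fibroblasts were compared with puberty and adult joined as normal. With limma-voom, 1 of 29 tested Hox genes was called lower, where 6.29% of 16302 genes were. In the same fit 0 Hox genes were called higher, where 7.7% of all genes were. The count changed with the library left out, as given below, so it is no result about Hox genes. The called gene was Hoxd11, at 1.05 CPM (51 UMIs) in puberty and 0.406 (30 UMIs) in the adult. It was at 0.0354 and 0.0414 in hyperplasia. The other 7 wild-type libraries, which are not in this fit, had 0.0 to 0.126 CPM (0.101 and 0.0971 with placebo), so they lay near or overlapped hyperplasia. Its log2 change was -3.77 ± 0.91 with an adjusted p of 0.0444. It passed in none of the fits that left out puberty, adult or either hyperplasia library, where it had adjusted p-values from 0.0699 to 0.246. In each fit that left out a tumour library 8 of 30 Hox genes were called (26.7%), where 28.3 and 28.4% of all genes were. Hoxc10 was 22.1 and 23.8 CPM in the normal libraries and 25.9 and 38.7 in hyperplasia (log2 change 0.43 ± 0.28, adjusted p = 0.317). Hoxd8 was 7.72 and 7.22 against 11.9 and 11.6, a log2 change of 0.63 ± 0.27 with an adjusted p of 0.153, and the placebo libraries of the same wild-type strain had 9.72 and 8.67 CPM. Hoxc8 in hyperplasia (42.1 and 52.9) lay above puberty and adult (27.8 and 30.9) and next to the placebo libraries (37.3 and 52.5). Normal and hyperplastic libraries also differ in age, strain, sort and transgene.

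Tumour fibroblasts were compared with those of hyperplasia. With limma-voom, 5 of 29 tested Hox genes were lower and 4 higher in tumour. These are 17.2% and 13.8% of the tested Hox genes, near the background of 13.9% lower and 15.4% higher of 16302 genes, so the number of calls is no result about Hox genes. The lower genes lay in the Hoxa and Hoxc clusters with numbers from 6 to 11, and the higher genes had numbers from 2 to 8. Paralogues 9 to 13 took 3.99 and 6.84% of Hox UMIs in the tumours and 19.7 to 33.5% elsewhere, and paralogues 1 to 3 took 29.7 and 20.4% against 8.44 to 11.2%.

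Hoxc10 was 25.9 and 38.7 CPM in hyperplasia but 0.00975 (1 UMI) and 0.125 (11 UMIs) in tumour. No other library came near the tumour values. The log2 change was -9.54 ± 0.91 (SE), adjusted p = 0.00379. Within mouse 1 the tumour held 0.000377 of the hyperplasia level (95% exact interval 9.54e-06 to 0.0021), and within mouse 2 0.00324 (0.00162 to 0.00581).

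Hoxc11, its posterior neighbour, had 1.13 and 1.42 CPM in hyperplasia and no UMI in either tumour. The level was at least 38.7-fold lower in mouse 1 and at least 41.6-fold lower in mouse 2, against a floor of 3 UMIs per tumour library, with an adjusted p of 0.00238. Hoxa10 fell from 6.71 and 10.3 CPM to 0.322 and 0.0342 (log2 change -6.16 ± 0.88, adjusted p = 0.00872). Hoxa9, which with Hoxb9 and Hoxd9 is known for mammary growth, fell from 6.37 and 7.79 CPM to 0.263 and 0.148, a log2 change of -5.11 ± 0.48 with an adjusted p of 0.00373. Hoxa6 was 0.602 and 0.801 CPM in hyperplasia and 0.0585 and 0.205 in tumour (log2 change -2.64 ± 0.57, adjusted p = 0.0219). The tumour values of all 5 genes lay below both hyperplasia values. These are the libraries that gave the calls, and the share of all genes without overlap is not given, so this adds no support.

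Hoxb2, Hoxd8, Hoxa4 and Hoxb4 rose, and their numbers overlap those of the genes that fell, since Hoxd8 stands above Hoxa6. Hoxb2 went from 8.44 and 10.6 CPM to 22 and 39.3 in tumour, a log2 change of 1.63 ± 0.30 with an adjusted p of 0.016. Hoxd8 went from 11.9 and 11.6 CPM to 40.4 and 26.2 (log2 change 1.47 ± 0.24, adjusted p = 0.0124). Hoxa4 went from 0.938 and 0.911 to 2.94 and 3.12 (1.71 ± 0.24, adjusted p = 0.00873), and Hoxb4, known from blood stem cells, from 8.96 and 8.52 to 14.5 and 13.2 (0.67 ± 0.15, adjusted p = 0.0246). Both tumours exceeded both hyperplasias in each, again in the libraries that gave the calls, so this adds no support either. The mouse pairs tumour and hyperplasia, and with the mouse as a block 12 of 29 were called (41.4%, against 37.7% of all genes), adding Hoxb3 (adjusted p = 0.0182), Hoxb5 (0.015) and Hoxb7 (0.028), all higher.

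**Figure D2:**
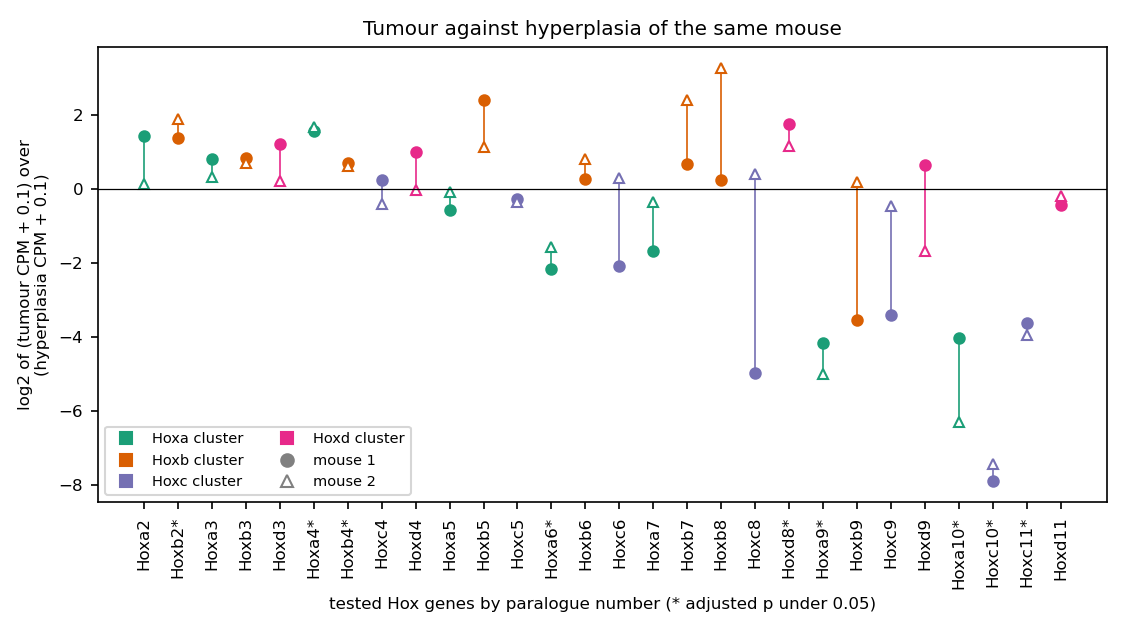
Log2 ratio of the tumour level over the hyperplasia level of the same mouse, each with 0.1 CPM added, for tested Hox genes in order of paralogue number; circles are mouse 1, triangles mouse 2, colours are clusters and asterisks mark an adjusted p under 0.05. Numbers 2 to 4 lie mostly above 0, Hoxa9, Hoxa10, Hoxc10 and Hoxc11 lie far below it in both mice, and Hoxc8 splits by mouse.

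The 2 tumours differed from each other in the middle of the Hoxc and Hoxb clusters. Hoxc8 was 1.26 CPM in tumour 1 and 70.1 in tumour 2, a ratio of 55.7 (95% exact interval 46.8 to 66.8). Hoxc9 was 1.55 and 17.9 CPM, and Hoxc6 5.61 and 27.9. Hoxb8 was 1.77 against 10.8 CPM and Hoxb7, known for a role in breast cancer, 5.48 against 22.8. Tumour 2 was higher in these 5 genes. Hoxb5 (7.34 against 1.97 CPM), Hoxd9 (4.76 against 0.866) and Hoxa2 (3.09 against 0.763) were higher in tumour 1. The Hoxc cluster supplied 18.2% of Hox UMIs in tumour 1 and 44.5% in tumour 2. Its sum was 32.0 CPM in tumour 1 and 131.1 in tumour 2, against 107.7 to 183.7 in the libraries without tumours. The lower Hoxc share of tumour 2 thus came without a Hoxc sum below that range. Hoxb summed to 73.2 and 107.5 CPM in the tumours, against 25.2 to 53.8. Age and tumour cannot be told apart here, since each tumour is a single mouse.

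**Figure D3:**
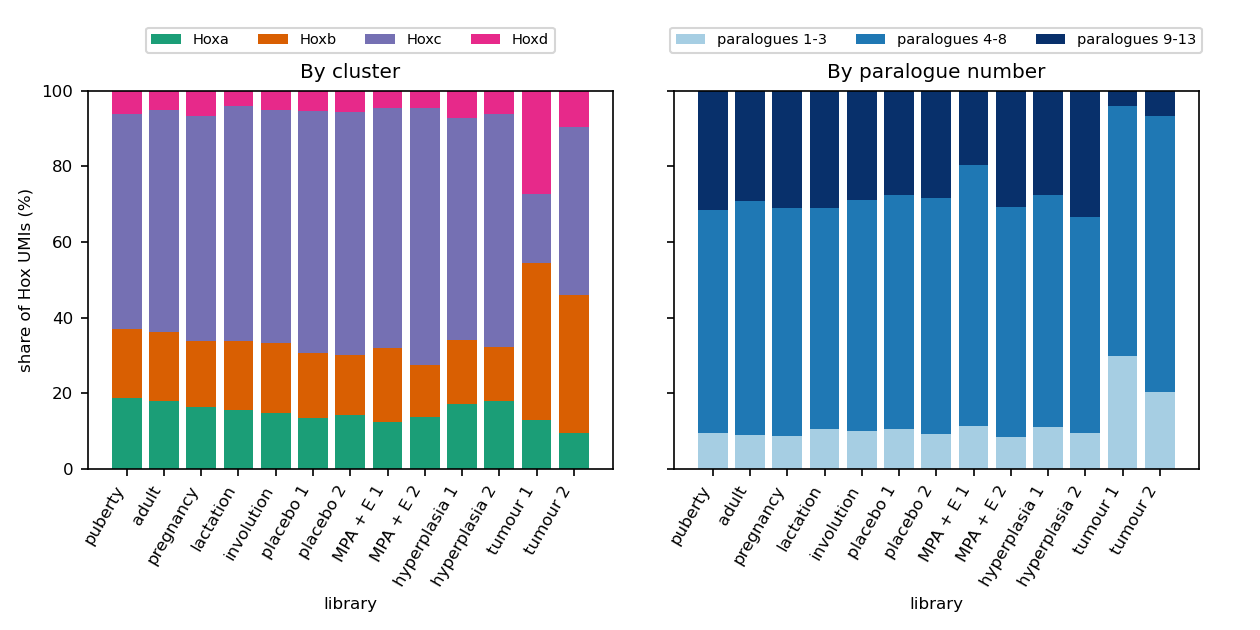
Share of all Hox UMIs (percent) by cluster (left) and by paralogue number (right) in the fibroblast barcodes of each library. The 11 libraries without tumours have Hoxc at 56.9 to 68.1%. Among them MPA + E 1 stands apart in paralogues 9 to 13, at 19.7% against 27.4 to 33.5% in the others. Both tumours have a lower share of Hoxc and of paralogues 9 to 13.

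Several of these calls rest on few libraries. Without hyperplasia 1, 4 Hox genes were called (Hoxa9, Hoxa10, Hoxc10, Hoxc11), where 1.43% of all genes were. Without hyperplasia 2, 3 were (Hoxa9, Hoxc10, Hoxc11), where 1.84% of all genes were. Without tumour 2, 20 of 30 were called, where 20.5% of all genes were, and these added Hoxc6, Hoxc8 and Hoxc9 as lower. Without tumour 1, 13 of 30 were (43.3%), near the 41.9% of all genes. Without puberty or adult 8 of 30 were, where 17.5 and 17.3% of all genes were. In the fits without a tumour or hyperplasia library that arm is 1 library, assumed to vary like the other groups. The comparison was repeated in 4 fibroblast states, cut from marker levels as described with their results. Each state is cut at the mean of its own library, so every library yields all 4, and a state need not hold the same cells in tumour and hyperplasia. The lobular markers had a median log2 change of -1.12 in tumour, and 264 of 605 lobular barcodes of tumour 1 lay near a limit, so these values are no check within a cell type. Hoxc10 was 9.68 to 43.6 CPM in the states of hyperplasia and 0.0 to 0.454 in those of tumour. Hoxa9 and Hoxa10 were also lower in both tumours in 4 of 4 states, and Hoxb2, Hoxb4, Hoxa4 and Hoxd8 were higher in 4 of 4. Hoxc11 and Hoxa6 were lower in 3 of 4. The genes were chosen by calls on these same barcodes and no share over all genes is given, so these counts add no support. Some margins were small. In progenitor barcodes Hoxb2 was 13.3 CPM in hyperplasia 2 and 13.4 in tumour 1, and Hoxa6 was 0.275 in hyperplasia 2 and 0.253 in tumour 2. In adipogenesis-regulatory barcodes Hoxc11 was at 0 in hyperplasia 1, and in ECM and preadipocyte barcodes Hoxa6 was 0.199 and 1.58 CPM in hyperplasia and 0.405 and 0.219 in tumour. Pericyte markers (Rgs5, Mcam, Notch3, with Rgs5 at 0 by selection) summed to 9.48 to 18.0 CPM in tumour and 5.83 to 5.89 in hyperplasia, and their part in the higher Hoxb2 and Hoxd8 was not tested. These libraries were sorted on GFP driven by Pdgfra, and 2 and 12 pericyte-like barcodes of the tumours and 0 of hyperplasia were left out. The sum of endothelial markers was 0.39 to 0.524 CPM in tumour and 0.69 to 1.2 in hyperplasia. The endothelial-like class was rich in Hoxd8 in the wild-type libraries, and its part here was not tested either.

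Promoter sequence is shown for 4 of the 9 Hox genes called in tumour, those with an entry outside annotated exons, as the 250 bases before the RefSeq start, GRCm38.p6, 5′ to 3′ on the gene's strand. Of the 39 genes 22 had an entry. Capitals mark CG pairs, which are the sites of DNA methylation. Hoxa9 (minus strand, chr6:52227371-52227620) and Hoxa10 (minus strand, chr6:52234940-52235189, the start nearer to Hoxa9) fell. Hoxb4 (plus strand, chr11:96318017-96318266) and Hoxd8 (plus strand, chr2:74704365-74704614) rose. None of these windows overlaps an annotated exon.
Hoxa9: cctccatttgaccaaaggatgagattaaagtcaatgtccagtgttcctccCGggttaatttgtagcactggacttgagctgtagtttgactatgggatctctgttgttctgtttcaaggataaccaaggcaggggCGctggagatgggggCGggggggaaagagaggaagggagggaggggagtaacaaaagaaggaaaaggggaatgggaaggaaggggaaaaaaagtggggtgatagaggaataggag
Hoxa10: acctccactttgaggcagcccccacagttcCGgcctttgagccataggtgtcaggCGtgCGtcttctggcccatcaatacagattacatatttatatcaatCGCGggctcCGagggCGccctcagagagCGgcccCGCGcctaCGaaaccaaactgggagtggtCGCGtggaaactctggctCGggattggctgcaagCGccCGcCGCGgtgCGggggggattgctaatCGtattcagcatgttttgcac
Hoxb4: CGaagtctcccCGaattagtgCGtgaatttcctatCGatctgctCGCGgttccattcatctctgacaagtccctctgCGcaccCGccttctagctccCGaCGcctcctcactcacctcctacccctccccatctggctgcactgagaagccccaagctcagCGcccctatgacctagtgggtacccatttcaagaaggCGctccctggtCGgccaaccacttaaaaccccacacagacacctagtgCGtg
Hoxd8: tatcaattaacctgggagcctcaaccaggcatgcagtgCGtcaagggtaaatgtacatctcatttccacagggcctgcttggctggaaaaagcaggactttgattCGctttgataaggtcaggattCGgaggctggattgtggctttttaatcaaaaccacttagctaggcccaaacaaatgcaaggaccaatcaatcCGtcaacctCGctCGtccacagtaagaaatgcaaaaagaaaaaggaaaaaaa

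These windows hold 3, 20, 14 and 6 CG pairs. The other windows of called genes, not printed, were that of Hoxa6, which fell, with 24 (it overlaps an exon of Hoxa6) and a second start of Hoxa10 with 7. The counts of genes that fell (3 to 24) thus span those of genes that rose (6 and 14). The median over 24 Hox windows was 12.5, against 6.0 over all 32851 promoter windows of the table. The Pbx-Hox motif TGATNNAT, searched on both strands, was in 4 of the 24 Hox windows (16.7%) and in 7.68% of all windows. None of the 4 windows printed above holds it. A match is a description of letters only.

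The fibroblast states were 4 ranges of summed marker levels in the same barcodes: progenitor (Pi16, Dpp4, Sema3c, Anxa3, Cd55), ECM and preadipocyte (Mmp3, Fabp4, Lox, Crabp1, Mgp), lobular (Bmp5, Thbs4, Cilp, Fndc1, Tgfbi) and adipogenesis-regulatory (Gdf10, Clec11a, Fmo2, F3, Inmt). No Hox gene was among the markers. A barcode took a state at 2 times the library mean of that list and 1.5 times its next list, so a state is a range of a score and not a type; 4851 of 13619 progenitor, 2242 of 7436 ECM and preadipocyte, 1229 of 5144 lobular and 1640 of 6692 adipogenesis-regulatory barcodes lay near a limit. The states were compared within the 9 wild-type libraries with edgeR's quasi-likelihood test with library as a block, each state against the mean of the other 3.

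In lobular barcodes, of 20 Hox genes tested, 7 were higher and 7 lower, where 16.9% of genes were higher and 15.1% lower. The higher were Hoxb4, Hoxb5, Hoxb6, Hoxb7, Hoxb8, Hoxc4 and Hoxd8, and the lower Hoxa3, Hoxa5, Hoxa9, Hoxa10, Hoxc8, Hoxc9 and Hoxc10, while Hoxb2 and Hoxb3 did not pass. Hoxb5 had a median of 7.06 CPM in lobular barcodes (2.54 to 10.0 over 9 libraries), against 1.65 in progenitor and 0.527 in ECM and preadipocyte barcodes. Its log2 difference was 2.43 ± 0.17, adjusted p = 3.43e-12, and it was higher than in the other states joined in 9 of 9 libraries. Hoxb8 had a median of 5.88 CPM (2.39 to 8.01) and a log2 difference of 2.40 ± 0.17 (adjusted p = 3.19e-12), and Hoxb6 a difference of 1.01 ± 0.19 (adjusted p = 8.22e-05). Hoxc9 fell to a median of 4.88 CPM (4.3 to 19.4), with a log2 difference of -1.49 ± 0.17 (adjusted p = 6.36e-08). Hoxc10 had a median of 7.14 CPM (2.94 to 24.5), difference -1.40 ± 0.22, and Hoxa9 of 0.691 CPM (0.364 to 6.25), difference -1.58 ± 0.31. Hoxa10 was lower by 1.44 ± 0.22 and Hoxa3, of the anterior end, by 0.90 ± 0.19. Hoxc9, Hoxc10, Hoxa9, Hoxa10 and Hoxa3 were lower than in the other states joined in 9 of 9 libraries, but the gap was uneven. Lobular Hoxc10 was 22.9 CPM in lactation, 18.0 in involution and 24.5 in the second MPA + E library. It was 2.94 to 8.04 in the other wild-type libraries. Hoxc9 was 19.4, 13.2 and 17.4 CPM in the same order, against 4.3 to 5.76. In the second MPA + E library Hoxc10 was 21.5 CPM in ECM and preadipocyte barcodes, below its lobular level.

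**Figure D4:**
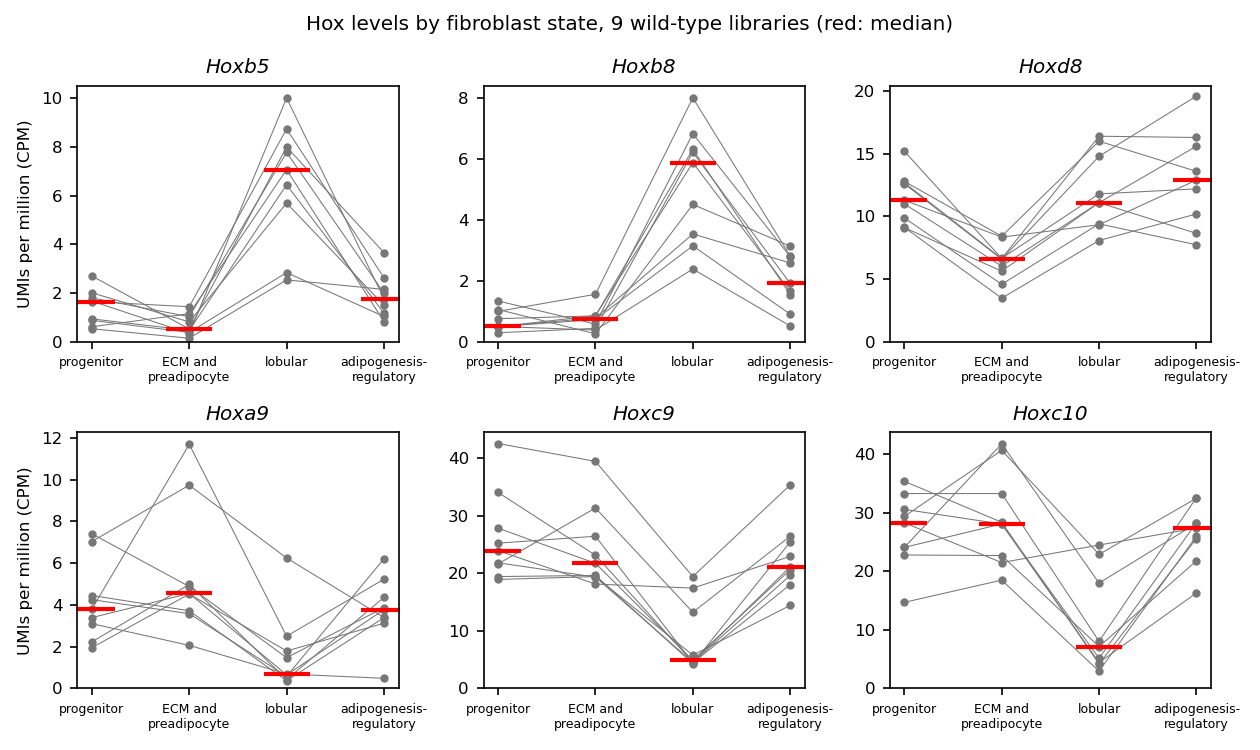
Level (CPM) of 6 Hox genes in barcodes of each fibroblast state; a grey line joins the states of 1 of the 9 wild-type libraries and red bars are medians. Hoxb5 and Hoxb8 peak in lobular barcodes, where Hoxc9, Hoxc10 and Hoxa9 have their lowest medians.

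In ECM and preadipocyte barcodes 6 Hox genes were higher and 12 lower, against 28.1% and 25.5% of genes. Since each state is set against the mean of the other 3, a low lobular level raises the differences of the others: the median of Hoxc10 was 28.1 CPM here, 28.3 in progenitor and 27.4 in adipogenesis-regulatory barcodes, and that of Hoxc9 21.7, 23.9 and 21.1, against 7.14 and 4.88 in lobular barcodes. Hoxa9 (log2 difference 0.95 ± 0.23), Hoxa10 (0.76 ± 0.17), Hoxc10 (0.59 ± 0.18) and Hoxa5 (0.56 ± 0.15) were among the higher. Against the other states joined, Hoxc10 and Hoxa5 were higher in 8 of 9 libraries, Hoxa9 in 6 and Hoxa10 in only 4. The median of Hoxa10 was 7.17 CPM here, 7.0 in progenitor and 1.76 in lobular barcodes. Hoxb5 (-1.87 ± 0.23), Hoxb8 (-1.42 ± 0.22), Hoxd9 (-1.23 ± 0.26) and Hoxd8 (-0.93 ± 0.10) were among the lower. Hoxd8 had a median of 6.59 CPM here and 11.3 in progenitor barcodes, and was lower in 9 of 9 libraries.

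Progenitor barcodes had 5 Hox genes higher and 2 lower, against 31.1% and 32.6% of genes. Hoxd9 (0.94 ± 0.20), Hoxa10 (0.83 ± 0.16), Hoxa7 (0.67 ± 0.11), Hoxc9 (0.59 ± 0.13) and Hoxc5 (0.31 ± 0.11) were higher. Hoxb8 (-1.47 ± 0.20) and Hoxb5 (-0.57 ± 0.19) were lower. A high lobular level lowers the differences of the other states. The median of Hoxb5 was 1.65 CPM in progenitor, 1.77 in adipogenesis-regulatory and 0.527 in ECM and preadipocyte barcodes, against 7.06 in lobular ones. Adipogenesis-regulatory barcodes had 7 higher and 0 lower, against 21.9% and 18.5% of genes. These were Hoxd9 (0.63 ± 0.24), Hoxa3 (0.59 ± 0.17), Hoxb7 (0.52 ± 0.13), Hoxd8 (0.45 ± 0.09), Hoxc9 (0.39 ± 0.15), Hoxc4 (0.27 ± 0.10) and Hoxc8 (0.24 ± 0.06). Of 20 Hox genes 19 were called in some state, where 82.0% of all 12092 genes were, so the count says little about Hox genes. Hoxb3, at 5.13 to 9.91 CPM in wild-type libraries, was called in none. In the raGFP-Wnt1 libraries alone 3 of 23 Hox genes were called, all in progenitor barcodes, where 34.8% of all genes were called. The other states there called 0.32 to 19.5% of all genes and 0 Hox genes. In lobular barcodes of hyperplasia, Hoxc10 was 9.68 CPM in mouse 1 and 33.7 in mouse 2.

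UMIs of Hoxc10 and of posterior Hoxa genes met in the same barcode more often than their shares give. Over the 11 libraries without tumours, 1162 barcodes had UMIs of both Hoxa9 and Hoxc10 (8.15% of the 14254 with Hoxc10 and 38.3% of the 3030 with Hoxa9), where 631.7 were expected from their shares within 10 bins of depth. The ratio had a median of 1.9 and lay above 1 in 11 of 11 libraries, from 1.31 to 3.34. Hoxa10 with Hoxc10 gave a median of 1.96, and Hoxc9 with Hoxc10, of the same cluster, 1.41. The pairs of Hoxc10 with Hoxc8, Hoxb4 and Hoxb2 gave medians of 1.01, 0.951 and 0.945, and with Hoxd8 0.812, below 1 in all 11 libraries. These were not the extremes of the 20 pairs read. Hoxc10 with Hoxb8 gave a median of 0.549 (above 1 in 2 libraries) and with Hoxb5 0.589 (above 1 in 0). The highest median was 3.67, for Hoxb5 with Hoxb8, above 1 in 8 of 11 libraries on 49 barcodes. Within states the median for Hoxa9 with Hoxc10 was 1.78. These are descriptions over barcodes that share a library and its free RNA. Most barcodes had no UMI of either gene, and the animals and glands behind a barcode are not known, so the source of the pairing was not tested.

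**Figure D5:**
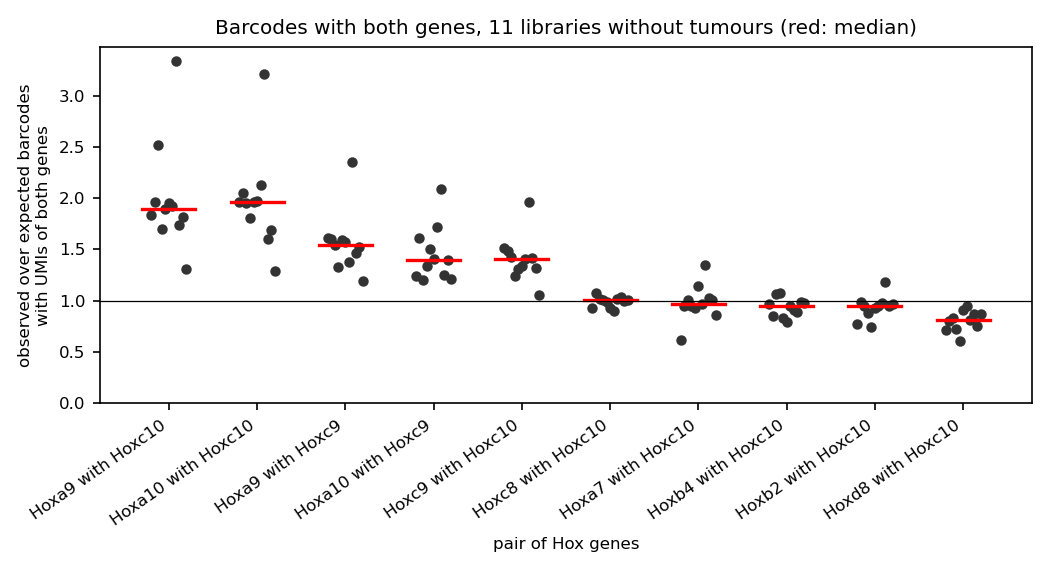
Barcodes with UMIs of both genes of a pair, divided by the number expected within 10 bins of depth; each point is 1 of 11 libraries without tumours and red bars are medians. Hoxa9 and Hoxa10 with Hoxc10 lie above 1 in every library, and Hoxd8 with Hoxc10 lies below 1 in every library.

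Other genes of the pathway were taken from fixed lists. Hormone called none of the 6 tested Hox-cluster non-coding RNAs, 9 TALE cofactors, 22 chromatin regulators or 21 tested position factors (edgeR). Only 4.33% of all 15642 genes were called there, so this count says little about these lists. In tumour against hyperplasia with limma-voom, 2 of 6 tested Hox-cluster RNAs were higher: Hotairm1, from the anterior end of Hoxa, at 8.67 and 8.13 CPM in hyperplasia and 17.7 and 18.1 in tumour (log2 change 1.10 ± 0.14), and Hoxaas3, at 0.708 and 0.704 against 3.74 and 3.79 (2.40 ± 0.25). Of 9 TALE cofactors, 4 were lower and 0 higher, where 13.9% of all genes were lower and 15.4% higher, and Meis1 (-0.92 ± 0.17), Pknox1 (-0.78 ± 0.18) and Meis2 (-0.55 ± 0.17) were among the lower. Of 22 chromatin regulators, 6 were lower and 1 higher, against the same 13.9 and 15.4% of all genes. Cbx7, a Polycomb reader, fell by 2.14 ± 0.35 on the log2 scale, from 14.6 and 14.3 CPM to 4.76 and 2.18. Kdm6a (-1.28 ± 0.29), a demethylase that opposes Polycomb, was lower too, and Phc2 was higher (0.85 ± 0.23).

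Of 22 tested position factors 4 were higher and 4 lower in tumour, near the 15.4% higher and 13.9% lower of all genes, so the count is no result about these factors. Gbx2, of the midbrain-hindbrain border, went from 0.0 and 0.0138 CPM to 1.45 and 3.04. Pitx1, which marks the hind limb, fell from 1.33 and 3.51 CPM to 0.00975 and 0.0342, and Tbx4, also of the hind limb, from 0.354 and 0.318 to 0.0585 and 0.0342. Tbx5, which marks the fore limb, fell from 10.2 and 12.8 CPM to 4.83 and 2.91. Pitx1 was 0.952 to 3.51 CPM and Tbx5 6.84 to 16.3 CPM in the libraries without tumours. Prrx2 (log2 change 1.58 ± 0.19) and Meox1 (1.40 ± 0.16) were higher.

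In hyperplasia against normal, 7.7% of all genes were higher and 6.29% lower. The lists gave 1 higher of 6 tested cluster RNAs (Hotairm1, log2 change 0.69 ± 0.17). Of 9 cofactors, 1 was higher (Pbx3, 1.23 ± 0.16) and 1 lower (Pknox2, -1.08 ± 0.26). Of 22 chromatin regulators, 6 were higher and 1 lower, and of 22 position factors 5 were higher. Cbx7 (1.94 ± 0.38), Pcgf2 (1.28 ± 0.18) and Cbx8 (1.22 ± 0.23), all Polycomb members, were the chromatin regulators with the largest change. Alx4 (1.80 ± 0.43), Tbx2 (1.69 ± 0.36), Twist1 (1.66 ± 0.15) and Irx3 (1.33 ± 0.24) led the position factors. Placebo libraries, which are not in this fit, reached the hyperplasia level of several of these. Alx4 was 1.33 and 4.36 CPM in puberty and adult, 9.26 and 9.37 in hyperplasia and 17.9 and 9.65 with placebo. Tbx2 (15.5 and 12.2 in hyperplasia, 13.4 and 8.46 with placebo) and Cbx8 (3.93 and 4.09, against 3.97 and 2.62) overlapped between hyperplasia and placebo. Placebo libraries had 205.8 to 285.2 CPM of Twist1, close to the 301.3 and 303.8 of hyperplasia, where puberty and adult had 88.4 and 98.3.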

How the data were processed

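UMI counts per gene and barcode were deposited by the authors for 13 libraries, made from droplet-based 3′ libraries with Cell Ranger 6.1.2 and mouse build mm10; intronic counting settings are not given in the sources used here. Counts were summed over the fibroblast barcodes of each library, and CPM is the sum per 1000000 UMIs. The members, lists and tests were chosen with earlier results of these data known.

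Hormone was tested with edgeR 4.0.16 (quasi-likelihood, TMM, filterByExpr) and hyperplasia and tumour with limma 3.58.1 (voom, 6 libraries in 1 fit), with Benjamini-Hochberg adjustment over all genes and a threshold of 0.05. DESeq2 1.42.0, other cell filters, RLE scaling, leaving out libraries and the replicate block were alternatives. States were tested with library as a block. P-values measure only the spread between libraries. Intervals and floors of 3 UMIs cover counting error only. The hormone, tumour and progenitor-state fits were also run on simulated counts, with the outcome not given here. Doublets were not called, and an alternative left out the 8% of barcodes with most UMIs. All 39 genes matched GENCODE M21 by identifier. Described genes had a mean of at least 5 CPM over the 9 groups or were called; up to 4 called genes per other list and comparison were named by size of change, and Prrx2 and Meox1 beyond these were chosen after their values were seen. Tumour and hyperplasia of the same number come from the same mouse per the labels, and their deviations from group means correlated at 0.181 over 16302 genes. Unmatched sample columns numbered 0. Values of some genes are not reported here, though they stayed in the fits, sums and counts.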

Additional observations from a re-analysis of the deposited data

Results flagged for a closer look

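Hox genes were picked out where tumour and hyperplasia moved in opposite ways in the 2 raGFP-Wnt1 mice with both counting intervals away from 1, and the difference between the mice was not tested. Hoxc8 in tumour was 0.0299 of its hyperplasia level in mouse 1 and 1.33 times it in mouse 2. Hoxc6 gave ratios of 0.233 and 1.22. Hoxd9 gave 1.57 in mouse 1 and 0.292 in mouse 2, and Hoxc4 gave 1.18 and 0.751.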

How the results depend on the processing

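The MPA + E count of 0 Hox genes became 1 with a fibroblast marker minimum of 100, with DESeq2 and with the replicate number as a block (Hoxb9 each time), and ranged from 0 to 1 with 1 library left out. The labels give placebo and MPA + E libraries no link beyond the replicate number. Deviations of same-numbered libraries from their arm means correlated at 0.553 over 15642 genes, so what they share is not known. Hoxc10 was -0.60 without the second MPA + E library and reversed to 0.18 without the first. The hyperplasia count of 1 became 0 with the marker minimum of 100 and 2 with DESeq2, and ranged from 0 to 8 with 1 library left out. The tumour count of 9 ranged from 3 to 20 with 1 library left out, and was 12 with the mouse as a block and 13 with DESeq2. The state count of 19 (82.0% of all genes were called in some state) ranged from 18 to 20 with 1 library left out (at most 81.4% of all genes) and was 3 in the raGFP-Wnt1 libraries alone (38.5% of all genes), where Hoxa3 in lobular barcodes (0.25) and Hoxd8 in ECM and preadipocyte barcodes (0.43) reversed. The stage count of 5 was 3 with a mitochondrial limit of 5% and 3 with a mean of at least 10 CPM. Over all genes, the 678 MPA + E calls became 2451 with the block, 1358 with DESeq2 and 22 to 900 with 1 library left out, the 2280 hyperplasia calls 4017 with DESeq2 and 1 to 4810 with 1 left out, and the 4777 tumour calls 242 to 7120 with 1 left out. The causes were not tested. Hoxc10, Hoxc11 and Hoxa9 stayed lower in tumour past the threshold under every alternative run. Arms of 2 libraries limit the hormone, hyperplasia and tumour tests, and genes under 1 CPM rest on few UMIs.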
